A study of Mus musculus with 22 samples.

Results

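Bone morphogenetic protein (BMP) signalling and the Id genes were followed through 10 genes: the ligand gene Bmp4, the receptor gene Bmpr1a, the signal transducer Smad1, the target genes Id1, Id2, Id3 and Id4, and the feedback inhibitors Smad6, Smad7 and Bambi. The genes were selected by symbol, with earlier results of these data known, from a table of 18487 genes in mouse embryonic stem cells (ESCs). All 10 were above 0 in all 22 libraries, and all 10 were among the 17275 genes that reached a value of 10 in at least 2 libraries and were tested. BMP ligands are secreted proteins that bring type I receptors such as BMPR1A together with type II receptors, and the active receptor phosphorylates SMAD1 and its relatives, which enter the nucleus with SMAD4. The Id genes are among the best known direct targets. ID proteins lack a DNA-binding domain and sequester the E proteins with which many lineage-determining basic helix-loop-helix factors must pair, and in ESCs grown in serum and LIF the BMP-to-Id route is known for holding back neural differentiation.

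The cells were E14, an established mouse ESC line, kept in serum and LIF according to the study's methods. Poly(A) RNA was sequenced from 11 groups of 2 libraries: the reference group NC, to which the labels assign no agent, and 10 groups that each received a compound directed at chromatin. Doses and exposure times were not given in the labels, and the study's methods cover knockdowns rather than these compounds. Bromosporine blocks the bromodomains that read acetylated lysines, and Valproate blocks histone deacetylases. CPTH2 and Garcinol act on histone acetyltransferases, Chaetocin on histone lysine methyltransferases, UNC0379 on SETD8, and MS023 on type I protein arginine methyltransferases. DZNep is an inhibitor of S-adenosylhomocysteine hydrolase with a wide effect on methylation, IOX1 is an inhibitor of 2-oxoglutarate oxygenases that include histone demethylases, and the label OICR was not spelled out further. All groups were the same cell line, and nothing in the labels said whether the paired libraries came from separate cultures, so the p-values below measure the spread between libraries, which may be technical.

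The values were normalized read counts in which the libraries had been forced to the same distribution (median 409 and highest value 221616 in each), so the sequencing depth of single libraries is unknown and low values carry no detection limit. The pluripotency markers Pou5f1 (28606 and 29454 in NC) and Nanog (44793 and 59405 in NC) were high, and the summed value of 8 pluripotency markers was 204835 to 205617 in NC. On this scale the 10 genes spanned a wide range. Per kilobase of the longest coding transcript, the NC mean was 4.118 for Bmp4, 24.26 for Id3, 25.9 for Id2, 49.88 for Id4, 53.9 for Bambi, 65.09 for Id1, 125.9 for Smad6, 253.4 for Smad1, 274.9 for Bmpr1a and 323.3 for Smad7. The receptor, the transducer and Smad7 were thus the most abundant, and the ligand the least. By the unscaled NC mean, Bmp4 stood at percentile 5.01 of the tested genes, Id3 at 12.8, Id2 at 18.4 and Id1 at 23.1, whereas Smad7 stood at 70.1 and Bmpr1a at 73.5.

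Sequence near the RefSeq start is shown for Bmp4, Id2, Id3 and Smad6, because SMADs bind short, well defined DNA elements. These are the 4 genes that passed the test with at least 1 compound and had a window in the RefSeq promoter set used. That set held a window of 300 bases around the annotated start (build GRCm38.p6) for 7 of the 10 genes. It had none for Id1, Smad7 and Bambi, so Id1 is not shown although it passed the test. Each window was searched on both strands for 3 SMAD elements, which were CAGAC, the GC-rich element GGCGCC and the palindrome GTCTAGAC. The core of the GC box, GGGCGG, and the E-box CACGTG were searched as well. These motifs do not contain each other. The sequences are written on the strand of the gene, 5′ to 3′, with the motif in capitals, and distances count from the first base of the motif to the start that RefSeq gives. For Id2 and Id3, GENCODE M21 places the start of the gene further upstream, so the stretches shown lie within the gene spans given below, that of Id3 in an exon and that of Id2 outside the exons.
Bmp4, chr14:46390670-46390919, minus strand, the 250 bases before the start, with CACGTG (188 bases before the start) and GGGCGG in capitals: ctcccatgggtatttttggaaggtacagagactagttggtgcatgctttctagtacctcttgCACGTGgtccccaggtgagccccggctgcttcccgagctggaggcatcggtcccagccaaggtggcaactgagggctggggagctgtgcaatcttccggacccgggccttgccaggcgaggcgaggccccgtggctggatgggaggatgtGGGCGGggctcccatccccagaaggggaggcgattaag
Id2, chr12:25096306-25096335, minus strand, with GGCGCC 231 bases before the RefSeq start: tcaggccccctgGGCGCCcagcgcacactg
Id3, chr4:136143742-136143771, plus strand, with GTCTG, the other strand of CAGAC, 68 bases before the RefSeq start: ggacccttggcgGTCTGttttgaataaggg
Smad6, chr9:64022045-64022074, minus strand, with GTCTAGAC 4 bases before the start and running across it: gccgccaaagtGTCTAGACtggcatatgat
Of 32851 such windows in the table, 0.213% held GTCTAGAC, 11.9% held GGCGCC, 49.6% held CAGAC, 35.7% held GGGCGG and 7.15% held CACGTG. The Smad6 window was the only member window with the palindrome. The Id3 window held 2 matches to CAGAC, and the windows of Id2, Id4 and Bmpr1a each held 1 match to GGCGCC. None of the 3 SMAD elements was found in the Bmp4 window, which says only that these letters are absent from it. Matches to such short motifs are descriptions of sequence and not evidence of binding.

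Each compound was compared with NC in a common fit of all 22 libraries with limma. Calls required both a fold over 2 and a p under 0.05 after Benjamini-Hochberg adjustment over all tested genes. Differences were taken between log2(value + 1), so the folds of genes with low values are understated. Of the 100 pairs of gene and compound, 11 were called (7 rises and 4 falls), in 5 genes: Bmp4, Id1, Id2, Id3 and Smad6. Among all tested genes, 2.15% of such pairs were called, and 16.3% of genes had a call with at least 1 compound. By a moderated F test, 6 of the 10 genes varied over the 11 groups at an adjusted p under 0.05, namely Id1, Id2, Id4, Bmp4, Smad6 and Smad7, against 29.7% of all tested genes. Every comparison below uses the same 2 NC libraries, so changes with different compounds are not independent of each other. All 11 calls rest on the spread estimated over the 11 groups: when only the 2 compound and 2 NC libraries entered the fit, 0 pairs were called, with adjusted p between 0.0873 and 0.315 for these 11. Without NC replicate 1 the count of calls was 6.

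**Figure D1:**
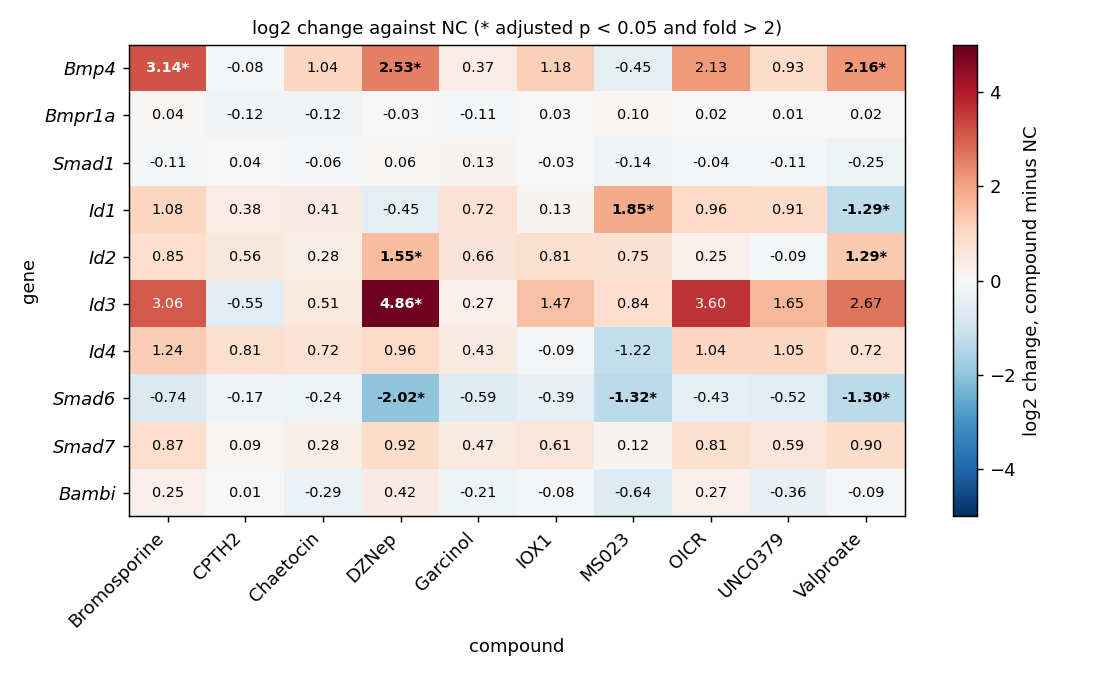
Log2 change of each of the 10 genes (rows) with each of the 10 compounds (columns) against NC, on the log2(value + 1) scale. Red cells are higher and blue cells lower than NC, and the 11 bold cells with an asterisk passed an adjusted p of 0.05 and a fold of 2, the largest being Id3 with DZNep at 4.86.

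Bmp4 encodes a BMP ligand that ESCs can make themselves. It is on chromosome 14 (mm10, 46383520 to 46390669, minus strand). Its value was 8 and 9 in the NC libraries. With Bromosporine it was 69 and 99, with DZNep 76 and 38, with Valproate 59 and 29, and with OICR 42 and 39. All 8 of these libraries lay above both NC libraries, whereas the values with CPTH2 (9 and 7), Garcinol (9 and 14) and MS023 (7 and 5) were close to NC. Bmp4 rose with Bromosporine by 3.14 on the log2 scale (SE 0.46, 8.82-fold, limma adjusted p = 0.00179). It rose with DZNep by 2.53 (SE 0.46, 5.78-fold, adjusted p = 0.00157) and with Valproate by 2.16 (SE 0.46, 4.47-fold, adjusted p = 0.0092). The difference with OICR was of like size, 2.13 (SE 0.46), but missed the threshold (adjusted p = 0.0578). This pair was called with the replicate number added to the limma fit (adjusted p = 0.023). Chaetocin (20 and 17), IOX1 (22 and 19) and UNC0379 (12 and 24) lay between, and none was called. In the order of means, from Bromosporine (84) through DZNep (57), Valproate (44) and OICR (40.5) to MS023 (6), 9 of 10 neighbouring groups overlapped, and the gap was between OICR and IOX1 (20.5). The call with Valproate was lost without NC replicate 1 (adjusted p = 0.0644) and without Valproate replicate 1 (adjusted p = 0.102). An exon of Gm15217 overlaps Bmp4 on the other strand, and whether the counting used strand was not stated.

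The receptor and the transducer stayed near their NC levels. Bmpr1a (chromosome 14, 34410734 to 34503341, minus strand) encodes a type I BMP receptor and ranged from 1405 to 1817 over the 22 libraries, with 1645 and 1630 in NC. Its log2 differences from NC lay between -0.12 and 0.10 over the 10 compounds (SE 0.12). The widest bounds of their 95% intervals were -0.38 and 0.37, so a 2-fold change lay outside the interval for every compound. Smad1 (chromosome 8, 79338395 to 79399518, minus strand) ranged from 751 to 1143, with 947 and 966 in NC. The lowest group mean was that with Valproate (751 and 857), a difference of -0.25 (SE 0.14, 95% interval -0.56 to 0.05, limma adjusted p = 0.285). The F test over the 11 groups gave an adjusted p of 0.772 for Bmpr1a and 0.536 for Smad1. The exons of Gm17110 overlap Bmpr1a on the opposite strand.

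**Figure D2:**
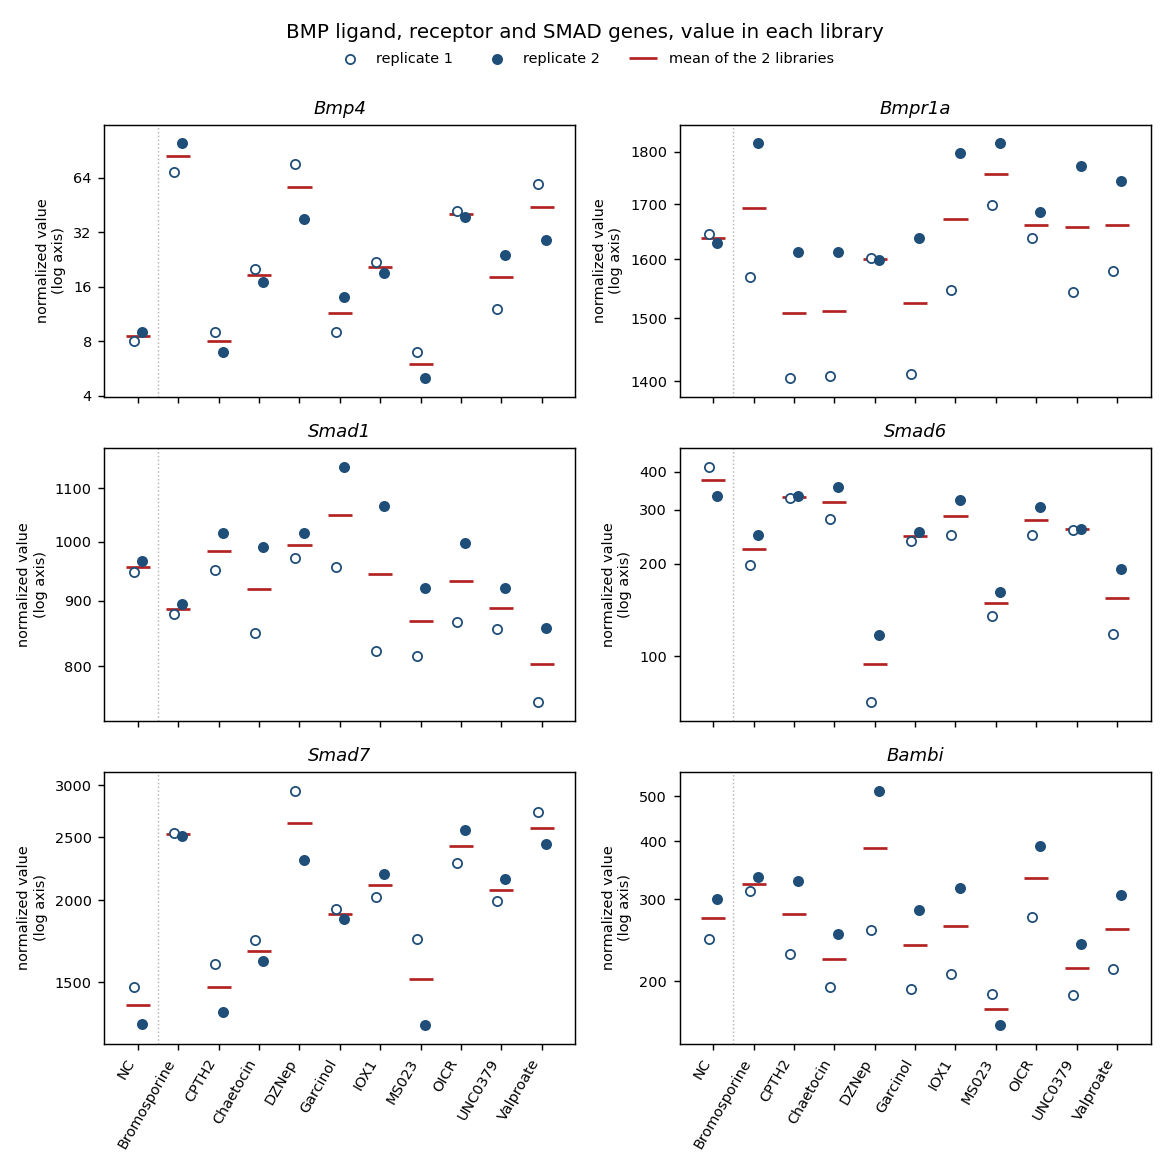
Normalized value (log axis, own scale in each panel) of Bmp4, Bmpr1a, Smad1, Smad6, Smad7 and Bambi in each library, with open circles for replicate 1, filled circles for replicate 2 and a red line at the mean of the 2. Bmp4 is high with Bromosporine, DZNep, Valproate and OICR, Smad6 is highest in NC and lowest with DZNep, and the panels of Bmpr1a and Smad1 span only 1405 to 1817 and 751 to 1143.

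Each of Id1, Id2 and Id3 had at least 1 call, with compounds that differed in part between them, and with Valproate Id1 fell while Id2 rose. With Bromosporine all 4 Id genes lay above both NC libraries, at log2 differences of 1.08 for Id1, 0.85 for Id2, 3.06 for Id3 and 1.24 for Id4. Each of these had an unadjusted p under 0.05, as did 3281 of the 17275 tested genes with Bromosporine. None of the 4 was called (adjusted p = 0.0789, 0.0804, 0.249 and 0.134 in limma). With the replicate number added to the fit, Id1, Id3 and Id4 were called with Bromosporine, and Id2 stayed under 2-fold. Id1 (chromosome 2, 152736251 to 152737410, plus strand) encodes the founding member of the family. Its value was 57 and 94 in NC, 335 and 213 with MS023, and 32 and 27 with Valproate. The libraries with MS023 were the 2 highest of all 22 and those with Valproate the 2 lowest. Id1 rose with MS023 by 1.85 on the log2 scale (SE 0.33, 3.61-fold, limma adjusted p = 0.0123) and fell with Valproate by 1.29 (SE 0.33, 2.44-fold lower, adjusted p = 0.0238). With Bromosporine it was 138 and 176, above both NC libraries, at a difference of 1.08 that was not called (adjusted p = 0.0789). OICR (142 and 145), UNC0379 (178 and 108) and Garcinol (101 and 146) also lay above both NC libraries without a call. DZNep (55 and 52) lay below both by a small margin (log2 difference -0.45, adjusted p = 0.353). Of the 10 pairs of neighbours in the order of means, 6 overlapped, and MS023 at the top and Valproate at the bottom each stood clear of their neighbour. The call with MS023 was lost without NC replicate 1 (adjusted p = 0.137) and without MS023 replicate 1 (0.132). That with Valproate was lost without NC replicate 2 (adjusted p = 0.2), Valproate replicate 1 (0.0736) or Valproate replicate 2 (0.105).

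Id2 (chromosome 12, 25093799 to 25097140, minus strand), known for its part in lymphoid development, was high with DZNep and Valproate. It was 39 and 63 in NC, 147 and 147 with DZNep, and 111 and 136 with Valproate, and these 4 compound libraries were the highest of the 22. The rise with DZNep was 1.55 on the log2 scale (SE 0.26, 2.93-fold, limma adjusted p = 0.000944), and that with Valproate 1.29 (SE 0.26, 2.45-fold, adjusted p = 0.00702). Equal ranks receive equal values under the forced common distribution, so the identical pair with DZNep is no measure of precision. Bromosporine (87 and 94), IOX1 (88 and 88), MS023 (73 and 97), CPTH2 (71 and 76) and Garcinol (70 and 89) all lay above both NC libraries, by log2 differences of 0.56 to 0.85, and none was called. Id2 with UNC0379 (38 and 57), OICR (61 and 57) and Chaetocin (58 and 63) overlapped NC or lay within its range. The call with DZNep held on leaving out any of the 22 libraries. That with Valproate was lost without NC replicate 1 (adjusted p = 0.0854) and without Valproate replicate 2 (0.0506), and when the mean of the other groups replaced NC the difference was 0.73 and under 2-fold.

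Id3 (chromosome 4, 136143497 to 136145755, plus strand) had both the largest change and the largest spread between paired libraries. Its value was 7 and 55 in NC and 630 and 601 with DZNep, the highest pair of the 22. With Bromosporine it was 104 and 296, with OICR 180 and 362, and with Valproate 54 and 329. The lowest libraries were CPTH2 replicate 1 at 5, and NC replicate 1 and Garcinol replicate 1 at 7 each. The rise with DZNep was 4.86 on the log2 scale (SE 1.39, 95% interval 1.87 to 7.86, 29.1-fold, limma adjusted p = 0.0213). The differences with OICR (3.60), Bromosporine (3.06) and Valproate (2.67) were larger than most called changes of the other genes but were not called. Their adjusted p was 0.342, 0.249 and 0.262 (SE 1.39 each). With the replicate number added to the limma fit, all 3 were called (adjusted p = 0.0194, 0.0135 and 0.0181). Both libraries with OICR and both with Bromosporine were above both NC libraries, and Valproate replicate 1, at 54, was just under NC replicate 2. Only the DZNep pair stood clear in the order of means, since 9 of 10 neighbouring groups overlapped. The call with DZNep was lost without NC replicate 1 (adjusted p = 0.212), DZNep replicate 1 (0.0776) or DZNep replicate 2 (0.0662), although the log2 difference stayed between 3.46 and 6.27 over all libraries left out.

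Id4 (chromosome 13, 48261228 to 48266026, plus strand), prominent in neural tissue, had 0 calls over the 10 compounds in limma, with 5 at an unadjusted p under 0.05. Depending on the compound, 163 (CPTH2) to 6110 (DZNep) of the 17275 tested genes had such a p. Id4 varied over the groups by the F test (adjusted p = 0.0172). It was 213 and 171 in NC, 94 and 70 with MS023, and 504 and 403 with Bromosporine. The MS023 pair was the lowest of the 22 and clear of the next group, IOX1 (195 and 164). The difference from NC was -1.22 with MS023 (SE 0.44, adjusted p = 0.196) and 1.24 with Bromosporine (SE 0.44, adjusted p = 0.134). With the replicate number added to the limma fit, both were called (adjusted p = 0.0304 and 0.0196). Paired libraries differed widely with CPTH2 (530 and 213) and Valproate (488 and 203). Exons of A330033J07Rik and Gm49291 overlap Id4 on the opposite strand.

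**Figure D3:**
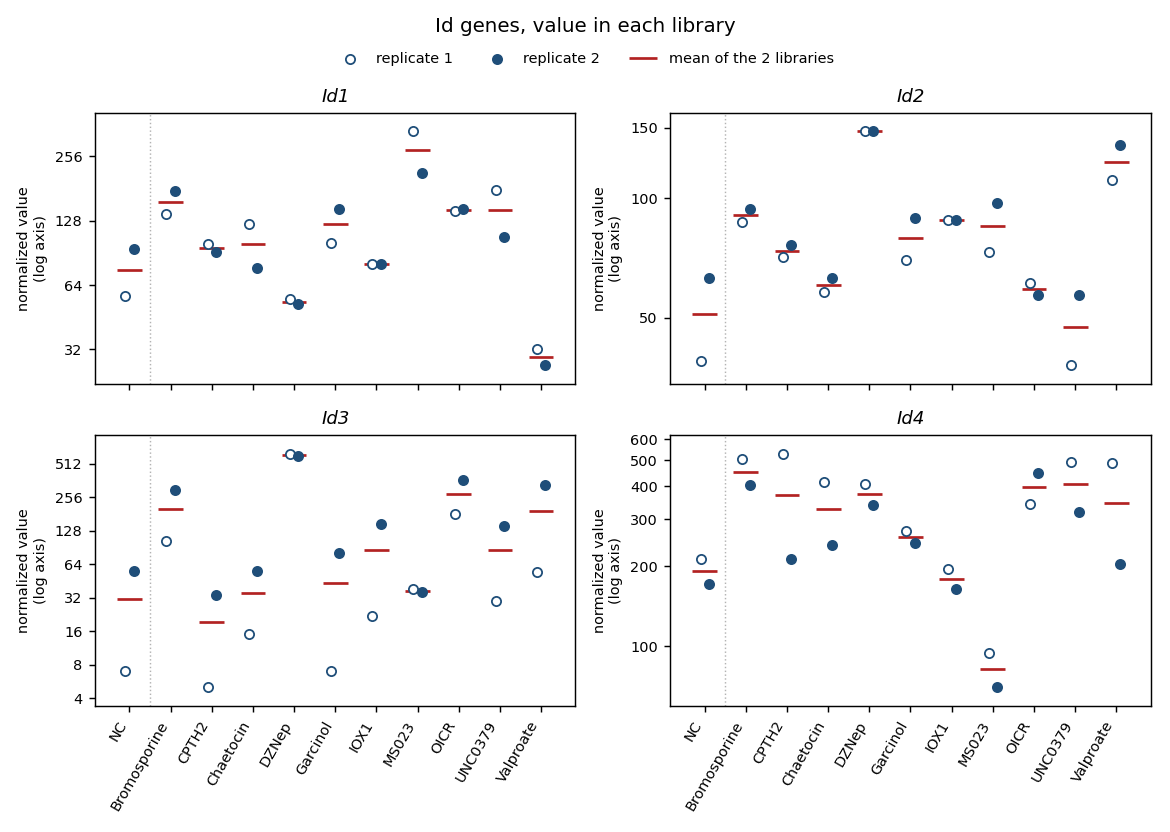
Normalized value (log axis, own scale in each panel) of Id1, Id2, Id3 and Id4 in each library, with open circles for replicate 1, filled circles for replicate 2 and a red line at the mean of the 2. Id1 is highest with MS023 and lowest with Valproate, Id2 and Id3 are highest with DZNep, Id4 is lowest with MS023, and the open circle of Id3 lies well below the filled circle in most groups.

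The 3 feedback inhibitors did not share a direction. Smad6 (chromosome 9, 63953076 to 64022059, minus strand) encodes an inhibitory SMAD that acts mainly on BMP receptors and SMAD1. It was 414 and 334 in NC, which had the highest mean of the 11 groups. It was 71 and 117 with DZNep, 135 and 162 with MS023, and 118 and 192 with Valproate, and these 6 libraries were the lowest of the 22. Smad6 fell with DZNep by 2.02 on the log2 scale (SE 0.27, 4.05-fold lower, limma adjusted p = 0.000184). It fell with MS023 by 1.32 (SE 0.27, adjusted p = 0.0218) and with Valproate by 1.30 (SE 0.27, adjusted p = 0.00753). With Bromosporine it was 199 and 248, a difference of -0.74 (adjusted p = 0.135). The call with DZNep held on leaving out any library. That with MS023 was lost on leaving out NC replicate 1 (adjusted p = 0.196), NC replicate 2 (0.0633), MS023 replicate 1 (0.175) or MS023 replicate 2 (0.0807), and that with Valproate without NC replicate 1 (0.0739) or Valproate replicate 1 (0.0879). Against the mean of the other groups, the differences with MS023 (-0.68) and Valproate (-0.66) were under 2-fold.

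Smad7 encodes the broader inhibitory SMAD, which acts on TGF-beta, activin and BMP receptors. It was 1473 and 1293 in NC, the lowest mean of the 11 groups, and 2944 and 2306 with DZNep, 2727 and 2438 with Valproate, 2538 and 2510 with Bromosporine and 2278 and 2560 with OICR. These 8 libraries were the highest of the 22. The log2 differences were 0.92 with DZNep (limma adjusted p = 0.000803), 0.90 with Valproate (adjusted p = 0.00235), 0.87 with Bromosporine (adjusted p = 0.00507) and 0.81 with OICR (adjusted p = 0.0308), with an SE of 0.15 each. As folds these were 1.89, 1.87, 1.83 and 1.75, so each passed the adjusted p and none the fold of 2. Over the alternative settings the log2 differences went down to 0.44, 0.43, 0.39 and 0.32 in the same order. The limma adjusted p went up to 0.106, 0.145, 0.117 and 0.362. Without NC replicate 1 or DZNep replicate 2 the difference with DZNep was above 2-fold, at 1.01 and 1.09 on the log2 scale. Counting pairs by the adjusted p alone, 15 of the 100 passed, against 4.23% of all pairs, and the 4 added ones were those of Smad7. Bambi, a pseudoreceptor that lacks the kinase domain, ranged from 161 to 514, with 247 and 300 in NC. Its log2 differences lay between -0.64 with MS023 (188 and 161) and 0.42 with DZNep (258 and 514), at an SE of 0.34, and the F test gave an adjusted p of 0.33.

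The 11 calls came from 4 of the 10 compounds. DZNep had 4 called genes (Bmp4, Id2 and Id3 up, Smad6 down), where 11.4% of all tested genes were called. Valproate also had 4 (Bmp4 and Id2 up, Id1 and Smad6 down), where 5.28% were called. MS023 had 2 (Id1 up, Smad6 down) beside 0.973%, and Bromosporine had 1 (Bmp4 up) beside 3.34%. The other 6 compounds had 0 calls among the 10 genes in limma. Of all tested genes, 0.388% were called with OICR, 0.116% with IOX1, 0.0174% with Chaetocin, 0.00579% with CPTH2 and likewise with Garcinol, and 0% with UNC0379. At an unadjusted p under 0.05 there were 5 of the 10 genes with OICR (10.7% of all tested genes), 4 with Garcinol (3.62%), 3 with IOX1 (12.4%), 3 with UNC0379 (6.08%), 1 with Chaetocin (4.72%) and 0 with CPTH2 (0.944%). With Bromosporine both libraries lay above both NC libraries for 7 of the 10 genes, where 26.4% of all tested genes did so, and with DZNep for 6 genes (26.5%). The median log2 difference of the 10 genes was 0.86 with Bromosporine, 0.67 with DZNep, 0.54 with OICR and 0.37 with Valproate, and -0.02 with MS023, while the median of all tested genes lay between -0.04 and 0.01 for all 10 compounds.

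The number of the replicate moved with Id3 more than with any other of the 10 genes. In a fit with the 11 groups and the replicate number, Id3 was higher in replicate 2 by 1.85 on the log2 scale (SE 0.31, 3.61-fold, limma adjusted p = 0.000374), and replicate 2 was the higher library in 9 of 11 groups. The exceptions were DZNep (630 and 601) and MS023 (38 and 36). Of the 10 genes only Id3 passed both thresholds, where 4.04% of all tested genes did. At any fold, 7 of the 10 genes differed between the numbers at an adjusted p under 0.05, against 52.6% of all tested genes. Among them Id4 was lower in replicate 2 in 10 of 11 groups (-0.48, adjusted p = 0.00947) and Bambi higher in 10 of 11 (0.42, adjusted p = 0.00175). Smad1 was higher in replicate 2 in all 11 groups, by 0.16, and 12.3% of all tested genes were higher in replicate 2 in every group. Bmp4 (-0.10, adjusted p = 0.701) and Id1 (-0.08, adjusted p = 0.655) did not pass. Within replicate 1 alone, the Id3 difference from NC was 6.30 with DZNep, 4.50 with OICR, 3.71 with Bromosporine and 2.78 with Valproate, and within replicate 2 it was 3.43, 2.70, 2.41 and 2.56. All 8 of these differences were above 0, though each number has a single library per group and allows no test. These 4 compounds had the highest Id3 means. Both differences were also above 0 with UNC0379 (1.95 and 1.35), IOX1 (1.52 and 1.41) and Chaetocin (1 and 0.03), and both were below 0 with CPTH2 (-0.42 and -0.68). What the number stands for was not given.

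**Figure D4:**
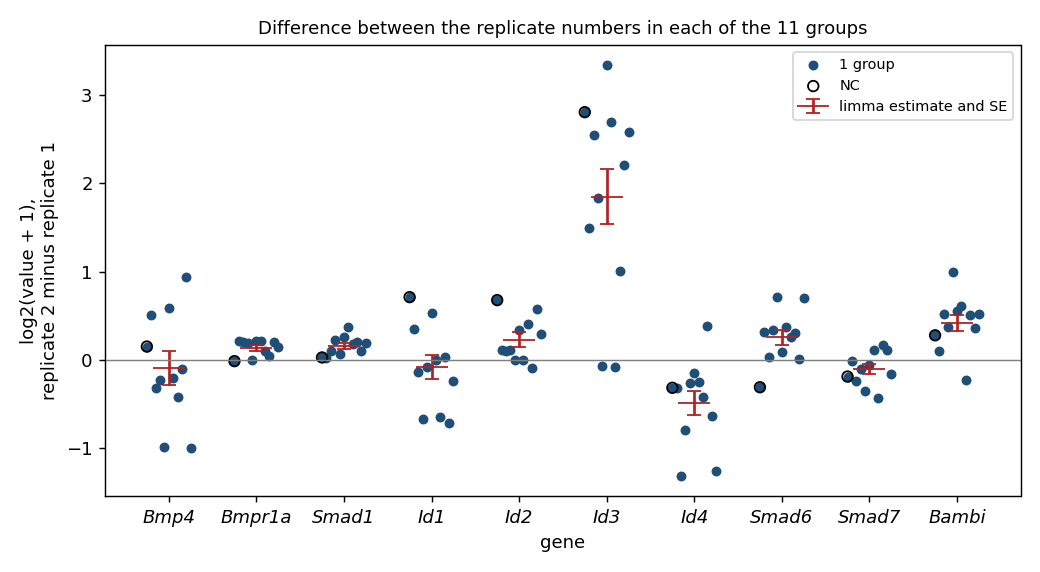
Difference in log2(value + 1) between replicate 2 and replicate 1 (vertical axis) for each of the 10 genes, with 1 point for each of the 11 groups, NC ringed in black, and the limma estimate with its SE in red. The points of Id3 lie above 0 in 9 groups, with an estimate of 1.85, while those of Bmp4 and Id1 lie on both sides of 0.

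Over the 22 libraries the levels of some of the 10 genes went together. The libraries share controls, replicate numbers and a forced distribution, so these correlations of log2(value + 1) are descriptions. Bmp4 and Smad7, the ligand and a feedback inhibitor, had a Pearson r of 0.887 over the 22 libraries and 0.916 over the 11 group means. Id3 and Bmp4 had an r of 0.705, which was 0.826 after centring each replicate number and 0.866 over the group means. For Id3 and Smad7 it was 0.66, 0.844 and 0.884. Id2 and Smad6 ran opposite, at -0.718 over libraries and -0.814 over group means. Id1 did not rise with these genes, with an r of -0.175 with Id3, -0.421 with Id2 and -0.283 with Bmp4. It was not alone in this, since Smad1 had an r of 0.175 with Id3, 0.0387 with Id2 and -0.211 with Bmp4.

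The genes whose levels were most like those of Id1, Id2, Id3 and Bmp4 were taken from 15841 genes above 0 in all 22 libraries, by Pearson r of log2(value + 1) over the 22 libraries. For Id1 these were 1810009A15Rik (r = 0.901), Rwdd4a (0.901) and Stambp (0.85). For Id2 they were Slc10a4 (0.859), Gmpr (0.846) and Slc39a14 (0.833). For Id3 the closest were Tubb4b (0.947), Polr2l (0.945) and Trp53rkb (0.944), and for Bmp4 they were Aprt (0.898), Chek2 (0.894) and Rnf167 (0.893).

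Beyond the 10 genes, 56 further genes of the pathway were listed, and 45 of them were tested. Of their 450 pairs with a compound, 13 were called (6 rises and 7 falls, in 10 genes), or 2.89%, close to the 2.15% of all tested genes. Smad9 is listed both as a transducer and as a target, and is counted once in these totals and in each of the 2 lists below. Among the other ligands, 1 of 70 pairs was called: Bmp8b rose with Valproate from 1 and 2 to 15 and 14 (log2 2.66, SE 0.74, limma adjusted p = 0.0356). Bmp8b reached a value of 10 only in the Valproate libraries and was tested because of them. Its call is therefore a description and not a test, as is that of Acvrl1 with DZNep below, and both are among the 13 calls. Bmp2, the closest relative of Bmp4, was 84 and 36 with Bromosporine beside 8 and 15 in NC, and was not called (adjusted p = 0.111). Bmp7 was 1010 and 371 in NC and 145 and 154 with MS023 (log2 -2.03, adjusted p = 0.138). Both of these were named after their values were seen.

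Among the other receptors and co-receptors 3 of 90 pairs were called, and all 3 were rises. Rgma, a BMP co-receptor, was 263 and 351 in NC. It rose with Valproate to 1095 and 1131 (log2 1.87, SE 0.23, limma adjusted p = 0.000256) and with DZNep to 697 and 651 (log2 1.15, adjusted p = 0.00254). Acvrl1, a type I receptor of endothelial cells, rose with DZNep from 4 and 3 to 42 and 29 (log2 3.01, SE 0.55, adjusted p = 0.00161). Without the DZNep libraries Acvrl1 would not have met the filter, so its call is a description and not a test. Setting it aside leaves only the rises of Rgma among the called receptors and co-receptors. The other SMAD transducers, Smad4, Smad5 and Smad9, had 0 of 30 pairs called in limma, with 6 pairs at an unadjusted p under 0.05. Depending on the compound, 163 (CPTH2) to 6110 (DZNep) of the 17275 tested genes reached that level.

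Secreted antagonists, which bind BMP ligands outside the cell, had 4 calls in 100 pairs, all falls. Chrd, which encodes chordin, was 454 and 367 in NC and fell with DZNep to 158 and 160 (log2 -1.35, limma adjusted p = 0.00106) and with Valproate, just past the fold of 2, to 225 and 184 (SE 0.23, adjusted p = 0.0148). Nog, which encodes noggin, fell with OICR from 26 and 12 to 1 and 1 (log2 -3.23, SE 0.59, adjusted p = 0.0283). Dand5, of the Cerberus family of antagonists, fell with Valproate from 116 and 85 to 57 and 42 (log2 -1.01, adjusted p = 0.0302). With Valproate, the median log2 difference of the 10 tested antagonists was nevertheless 0.33, so these falls do not describe the list as a whole. Of the other intracellular inhibitors, Skil, which encodes a SMAD corepressor, fell with DZNep from 1389 and 1175 to 675 and 478 (log2 -1.17, SE 0.17, adjusted p = 0.000324), the only call in 70 pairs.

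The other BMP target genes had 4 calls in 70 pairs, 2 in each direction. Hey1, also a Notch target, was 66 and 52 in NC and rose with Valproate to 332 and 221 (log2 2.19, SE 0.33, limma adjusted p = 0.0011) and with Bromosporine to 259 and 199 (log2 1.94, adjusted p = 0.00423). Msx1, a homeobox gene, fell with DZNep from 137 and 60 to 11 and 27 (log2 -2.32, SE 0.52, adjusted p = 0.00573). Dusp9, a MAP kinase phosphatase gene that BMP signalling maintains in ESCs, fell with Bromosporine from 8293 and 6943 to 881 and 1600 (log2 -2.68, SE 0.66, adjusted p = 0.0315). Over the 14 tested genes of the target list, the 4 Id genes, Smad6, Smad7 and Bambi included, the median log2 difference was 0.81 with Bromosporine, 0.47 with DZNep, 0.31 with Valproate and -0.25 with MS023. With DZNep and with Valproate, the called targets moved in both directions (2 up and 2 down each). The E protein genes Tcf3, Tcf4 and Tcf12, which encode the partners that ID proteins bind, had 0 of 30 pairs called in limma and 2 at an unadjusted p under 0.05. With DZNep, 6110 of the 17275 tested genes reached that level. Of the 2 pairs, Tcf3 with DZNep was 6127 and 6247 beside 8907 and 9086 in NC (log2 -0.54, adjusted p = 0.00235), under the fold of 2.

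Markers of other cell types moved with some of the same compounds. With DZNep, 2 of 7 tested primitive endoderm markers were called up (Pdgfra and Dab2) and 1 down (Gata4). The summed value of the list was 5216 to 7112 beside 5953 to 9444 in NC. With Valproate, Pdgfra rose from 22 and 19 to 88 and 78 (log2 1.97, limma adjusted p = 0.00546), and the sum was 8117 to 12756. Most of each sum was Lama1, which was not called (8733 and 5324 in NC, 6063 and 3882 with DZNep, 12149 and 7245 with Valproate). The median log2 difference of the 7 was 0.75 with DZNep, where Lama1 was lower (-0.49), and 0.46 with Valproate. Of 7 tested fibroblast markers, Col1a1 and Thy1 were called up with DZNep, and Thy1 and Lum with Valproate. The summed value of the list was 1669 to 1938 with DZNep and 1476 to 1613 with Valproate, beside 745 to 1476 in NC. These sums rest largely on Col3a1 and Postn, which jumped between paired libraries (Col3a1 4 and 743 in NC, Postn 658 and 0 with Valproate). Lum was 197 and 331 with Valproate, 346 and 0 with CPTH2, and at 0 in all other groups. It met the filter only through Valproate, so its call there is a description and not a test. Pdgfrb was lower with DZNep (log2 -1.33) and Valproate (-1.42), without a call. Col1a1 fell with Bromosporine from 24 and 24 to 7 and 6 (log2 -1.74, adjusted p = 0.00931), where the sum was 657 to 740. Dcn, a defining fibroblast marker, was listed at 0 in all 22 libraries. Among 6 neural markers, Sox1 fell with DZNep, MS023 and Valproate (log2 -1.52, -1.37 and -1.21), Neurod1 rose and Nes fell with DZNep, and Map2 rose with Valproate. Their summed value was 3444 to 5114 in NC, 4821 to 5418 with DZNep, 3605 to 4397 with MS023 and 3772 to 4862 with Valproate. This sum was mostly Tubb3 and Nes. The median log2 difference of the 6 was -0.31 with DZNep, -0.18 with MS023 and -0.29 with Valproate. Of 4 tested mesoderm markers, Eomes rose with Bromosporine and DZNep and Hand1 was listed at 0 in both Bromosporine libraries (9 and 4 in NC). The summed value was 173 to 180 in NC, 328 to 378 with Bromosporine and 252 to 407 with DZNep. Most of that sum was Eomes (129 and 119 in NC, 331 and 298 with Bromosporine, 356 and 199 with DZNep). With Bromosporine T (log2 -0.22), Mixl1 (-0.30) and Hand1 (-2.82) were lower, and the median log2 difference of the 4 was -0.26. With DZNep the median was 0.38, with T and Mixl1 lower. The pluripotency sum was 265896 to 274170 with DZNep and 171573 to 186847 with MS023, with Zfp42 the only called gene of the 8 with DZNep, a rise. Much of the higher sum with DZNep was Nanog, at 92251 and 123367 beside 44793 and 59405 in NC. Tdgf1 was lower, at 11541 and 8477 beside 25722 and 15640, as was Dppa5a (log2 -0.45). The median log2 difference of the 8 was 0.17 with DZNep. The part of other cell types in the changes of the 10 genes was not tested, and in bulk RNA a change in the share of such cells and a change in RNA per cell cannot be told apart.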

How the data were processed

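Poly(A) RNA of 22 libraries (10 compounds and NC, 2 each) was measured, grouped by the sample titles. The deposited values are scores: normalized read counts per gene, rounded to whole numbers. According to the submitters' processing notes and the study's methods, the authors used Bowtie2 2.2.5 and RSEM (mm10) and applied EDASeq's full-quantile normalization. The methods also describe counting with TEtranscripts, and which route gave this table was not stated. The normalization hides depth and any change shared by most genes. The authors' DESeq2 test needs raw counts and was not run. A second deposited table of the authors' group means was not used, and 0 columns were unmatched.

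Values were analysed as log2(value + 1) with limma 3.58.1 (R 4.3.3): 11 group means, moderated variances with a trend, 11 residual degrees of freedom, two-sided p-values adjusted by Benjamini-Hochberg within each contrast over 17275 genes. The fit was tested on simulated data. Alternatives were a pseudocount of 10, no filter, only compound and NC libraries, a replicate block, median-ratio rescaling, the mean of the other groups as reference, no fold threshold, and each library left out. The 10 genes, the pathway and marker lists and the tests were chosen with earlier results of these data known. Named pathway genes were those called with at least 1 compound, at most the 12 largest changes. Values of Bmp2, Bmp7 and Tcf3, which had no call, were given outside that rule. Likeness took the 3 highest Pearson correlations. Positions came from GENCODE M21 (mm10), and promoters from RefSeq (GRCm38.p6). Python 3.11.15 and matplotlib 3.10.9 were used for sequences and plots.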

Additional observations from a re-analysis of the deposited data

How the results depend on the processing

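With only the compound and NC libraries in the fit, 0 pairs of the 10 genes and 0 of the other pathway genes were called, in place of 11 and 13. This fit has fewer residual degrees of freedom. With the replicate block, 18 pairs of the 10 genes (13 rises and 5 falls) and 26 of the other pathway genes were called, where 3.65% of all pairs were. The 7 added pairs were Id3 with Bromosporine, OICR and Valproate, Bmp4 with OICR, Id1 with Bromosporine (adjusted p = 0.0379), and Id4 with Bromosporine (0.0196) and MS023 (0.0304). The main fit did not treat the replicate numbers as pairs, so differences by number stay in its spread. Differences between replicate 2 and 1 correlated between groups at 0.0535 to 0.298 over 55 pairs of groups (median 0.196), above 0 in every pair. At any fold, 52.6% of all tested genes differed by number at a limma adjusted p under 0.05. For Id3 the SE of 1.39 in the main fit includes that difference. On leaving out 1 library, where the lone library was assumed to vary like the other groups, the counts ran from 6 to 12 and from 6 to 14, the lowest both without NC replicate 1. Bmp4 with OICR was called without either DZNep or either Valproate library. A pseudocount of 10, no filter, rescaling, another reference or no fold threshold gave 10 to 15 and 10 to 17 calls, and rescaling moved the median of all genes by at most 0.0358. The genes varying over groups numbered 5 to 8 in all settings, and Id3 differed by number by 1.47 to 2.04. No direction reversed.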
